A study of Mus with 5 samples.

Results

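Transcription factors that steer activated CD8 T cells towards effector fate were followed as 8 genes: Tbx21, Eomes, Prdm1, Zeb2, Id2, Zbtb32, Bhlhe40 and Hic1. A peak was counted for a gene when the gene column of the authors' annotated peak list named it. By this rule 52 of 27480 peaks belonged to the 8 genes, among 12769 genes named in any list. The peaks came from chromatin immunoprecipitation followed by sequencing (ChIP-seq), in which an antibody recovers the DNA fragments bound by a protein and places where fragments pile up are called as peaks.

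The cells were primary CD8 T cells from the spleen of wild-type mice. Stimulation through anti-CD3 and anti-CD28 in the presence of IL-2 lasted 24 h, a rest in 100 U/ml IL-2 took another 24 h, and a last 1 h followed either without retinoic acid (RA; control) or with RA at 50 nM. RARα, the nuclear receptor through which RA acts on transcription, and BATF, an AP-1 family factor, were each precipitated from control and RA-treated cells, which gives 4 peak lists. Each list had been called on 2 pooled alignment files against 1 file of normal rabbit IgG that served all 4, so there is 1 list per condition, no spread between replicates and no test between conditions. The labels call the cells naive and name IL-7 to IL-10 in the treatment field where the protocol names IL-2, and they do not give the RA state of the IgG cells.

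T-bet (encoded by Tbx21) and Eomes are related T-box factors, T-bet driving effector genes such as Ifng and Eomes being associated with memory and exhausted cells. Prdm1 encodes Blimp-1, a repressor needed for terminal effector differentiation, and Zeb2 encodes a zinc-finger repressor that acts with T-bet in terminally differentiated cells. Id2 encodes an inhibitor of E proteins that favours effector over memory precursor cells. Zbtb32 encodes a BTB zinc-finger repressor that restrains the expansion of activated lymphocytes, Bhlhe40 a basic helix-loop-helix factor of activated T cells, and Hic1 a transcriptional repressor that RA is known to induce in intestinal T cells. BATF, with JUN partners and IRF4, is known for opening and occupying enhancers in activated T cells, whereas RARα pairs with RXR at retinoic acid response elements.

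The pools held between 16424269 fragments (BATF RA) and 23110180 (BATF control), and the IgG file 11410673. The BATF RA pool had 71.1% of the depth of its control and the RARα RA pool 99.2%. RARα peaks had been called at a p-value of 0.001 and BATF peaks at the stricter 1e-05. Positions are on mm10. Fragments are the number covering the summit of a peak, coverage is that number per 1000000 fragments of the pool, fold enrichment is the authors' ratio of that pileup to the local IgG level (1 added to each), and the distance is from the peak's edge to the span of the gene. Among marker genes, BATF control peaks were assigned to 7 of 7 CD8 T cell markers (62 assignments) and to 0 of 2 CD4 T cell markers. They were also assigned to 4 of 4 B cell markers (6 assignments), 2 of 4 myeloid markers (2) and 1 of 2 NK markers (6). A peak that names several of these genes adds an assignment for each. Over all protein-coding genes, 48.6% were named for a BATF control peak. A peak is not a measure of expression, and the part of other cells in the results was not tested.

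All 8 genes had at least 1 BATF peak in control cells, and 6 of 8 had a RARα peak. In the BATF control list 29 peaks were assigned to them, from 9 at Prdm1, 5 at Tbx21, 4 each at Zeb2 and Id2, 3 at Eomes and 2 at Bhlhe40 to 1 each at Zbtb32 and Hic1. In the BATF RA list there were 16 peaks at 7 genes, with 4 each at Tbx21 and Prdm1, 2 each at Id2, Zbtb32 and Bhlhe40, 1 each at Eomes and Zeb2, and none at Hic1. The RARα control list held 7 peaks, 2 at Eomes and 1 each at Tbx21, Prdm1, Zeb2, Zbtb32 and Bhlhe40, with none at Id2 and Hic1. The RARα RA list held 0 peaks for any of the 8. The lists as a whole were also shorter with RA, with 15812 BATF peaks in the control and 9899 with RA, and 1172 and 597 RARα peaks.

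Across the 21900 protein-coding genes, 48.6% were named for a BATF control peak, 38.3% for a BATF RA peak, 7.18% for a RARα control peak and 3.19% for a RARα RA peak. The 8 of 8, 7 of 8, 6 of 8 and 0 of 8 here stand against those shares. The genes are well-studied in activated T cells and were chosen with earlier results of these data known, so their higher shares in 3 of the lists were not tested. Prdm1 stood out by number, since only 1.79% of the 10654 coding genes with a BATF control peak had 9 or more. For Tbx21 the share with 5 or more was 9.51%. Neither share takes account of gene length, which is 91385 bp for Prdm1 and 17325 bp for Tbx21. Of the 9 Prdm1 peaks, 6 lay within 10 kb of the gene.

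**Figure D1:**
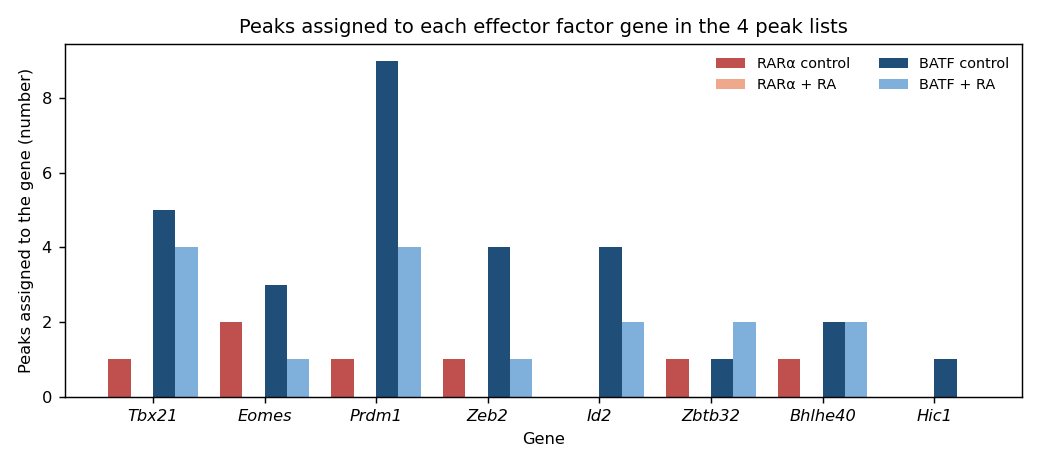
Number of peaks assigned to each of the 8 genes (bars) in the RARα and BATF lists of control and RA-treated cells. Prdm1 has the most BATF control peaks (9), every gene but Zbtb32 and Bhlhe40 has fewer BATF peaks with RA than in the control, and no bar stands for the RARα RA list because it holds 0 peaks for these genes.

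Of the 29 BATF control peaks, the authors' annotation called 11 promoter (37.9%, against 58.7% of the whole list), 2 intron and 16 intergenic. The gene's own span was reached by 10, and 11 lay beyond 10 kb from it. The annotation named further genes for 16 of the 29, and for 23 of the 29 the member was also the nearest protein-coding gene by position. Fold enrichment ran from 2.72 to 15.9 with a median of 5.45, beside a median of 5.40 over all 15812 peaks, so the peaks at these genes were of ordinary height for the list. In the BATF RA list their folds ran from 2.69 to 11.6 (median 5.57, list median 5.29). The 7 RARα control peaks had folds of 2.41 to 4.38 (median 3.27, list median 3.09) and rested on 11 to 24 fragments each. Their deposited q-values (p-values adjusted for multiple testing), on the −log10 scale, were 4.97 at Prdm1 and 3.20 at Zbtb32. At the other RARα peaks this value was at most 0.697, so those calls rest on the unadjusted p-value alone.

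**Figure D2:**
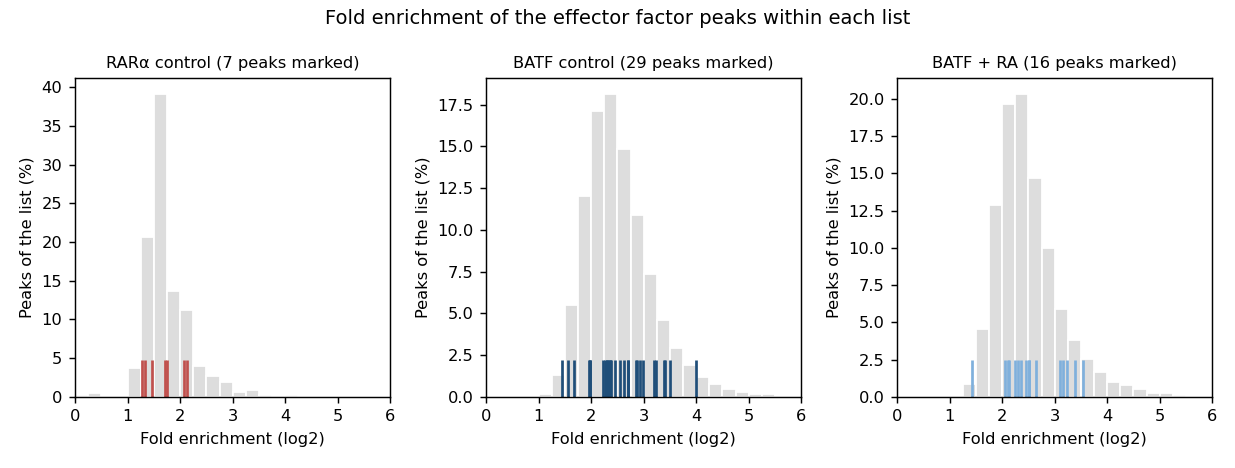
Fold enrichment on a log2 axis: grey bars give the percent of all peaks of a list in each bin and coloured ticks the peaks at the 8 genes. The ticks fall on both sides of each list's median and stop short of its highest bins. Above the median of their list are 4 of 7 RARα control, 15 of 29 BATF control and 9 of 16 BATF RA ticks.

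At Tbx21 the BATF peak of highest fold and the only assigned RARα peak lay outside the gene. Its BATF control peak of highest fold, chr11:97126846-97127352, was intergenic, 11515 bp beyond the end of the gene at which its promoter lies, with 74 fragments and a fold of 10.6 (−log10 p 52.5; 9.29% of the list was higher). The overlapping RA peak, chr11:97126885-97127277, had 49 fragments and a fold of 9.40 (−log10 p 34.6). This was the most heavily covered BATF site of the 8 genes, and its coverage was 3.20 in the control pool and 2.98 in the RA pool. The annotation named 10 genes for it, and by position the nearest coding gene was Tbkbp1, 8916 bp from the RARα peak within it.

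That RARα control peak, chr11:97126961-97127255, had 14 fragments and a fold of 2.52 (−log10 p 3.68), and 91.7% of the list had a higher fold. Its summit was 102 bp from that of BATF. The local IgG level there was 1.72 times its background in the RARα control list. A second intergenic BATF peak, 13543 bp from Tbx21, had 33 control fragments (fold 7.31) and 21 with RA (fold 5.67). Another, chr11:97131737-97132211 at 16406 bp, had 36 control fragments (fold 9.14) and no overlapping RA peak. At the promoter and first intron 2 wide control peaks had folds of 5.14 (25 fragments) and 3.18 (28 fragments), and the RA peaks within them had folds of 4.30 (12 fragments) and 4.38 (16 fragments). The Tbx21 cluster was thus called at 4 of 5 sites with RA, all but the outermost.

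Eomes, the other T-box factor, had weaker BATF peaks and the only promoter of the 8 at which RARα was called without BATF. The RARα control peak chr9:118477525-118477932, 254 bp from the lower end of the gene, was annotated as its promoter. It had 14 fragments and a fold of 2.76 (−log10 q 0.200), and the nearest BATF control peak was 9743 bp away. Beyond the other end of the gene, 2102 bp from it, a RARα control peak at chr9:118488234-118488484 had 12 fragments and a fold of 3.27. It lay within the highest BATF peak of Eomes, chr9:118487675-118488977, which had 24 fragments and a fold of 4.94 (−log10 p 11.0), and the summits were 12 bp apart. With RA the BATF peak there, chr9:118488222-118488473, had 18 fragments and a fold of 6.28 (−log10 p 12.1). Its coverage was 1.04 without and 1.10 with RA, a difference of 0.08 on the log2 scale. A pair of BATF control peaks lay 72537 and 61523 bp below the gene, with folds of 3.92 and 2.96, and neither was overlapped with RA.

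Prdm1 carried BATF peaks on both sides and within the gene. The highest, chr10:44539126-44539712, was intergenic, 10568 bp beyond the upper end of the gene, with 53 control fragments and a fold of 10.5 (−log10 p 39.0). Its RA counterpart, chr10:44539330-44539714, had 33 fragments and a fold of 8.87 (−log10 p 24.3). A peak 7376 bp below the gene had 30 control fragments and a fold of 7.93, and 25 fragments and a fold of 8.59 with RA. The other 2 matched sites, 9221 bp above and 55838 bp below the gene, had 23 and 19 control fragments and 18 and 16 with RA.

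Of the 4 matched Prdm1 sites, 3 had more coverage with RA than without, by 0.14 to 0.24 on the log2 scale, and the highest site had a difference of −0.19. The 5 Prdm1 control peaks not overlapped with RA included all 3 within the gene: a pair in intron 3 (20 fragments with a fold of 5.19, and 32 fragments with a fold of 2.72 over an IgG level 3.84 times background) and the one called promoter (23 fragments, fold 4.67). Another lay 1186 bp beyond the upper end with 31 fragments (fold 5.45). The last, 56476 bp below the gene, had 33 fragments (fold 4.80) and an RA peak 118 bp from its edge. The gene Atg5 was nearer than Prdm1 to this peak and to its neighbour at 55838 bp.

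RARα was called at Prdm1 away from all of these. Its control peak, chr10:44403481-44403831, was intergenic, 33343 bp below the gene, with 24 fragments and a fold of 4.19 (−log10 p 9.86). It was the RARα peak with the most fragments among the 8 genes, and 18.0% of the list had a higher fold. The nearest BATF control peak was 22145 bp away.

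At Zeb2 the lists had little in common, with 3 of 4 BATF control peaks not overlapped with RA. The control peak of highest fold, chr2:45172769-45173068, was intergenic, 55327 bp above the gene, with 36 fragments and a fold of 9.47 (−log10 p 26.3) over an IgG level at background. No RA peak lay nearer than 245068 bp. For the control peak called promoter the annotation named Zeb2os beside Zeb2. The control peak annotated as promoter had 26 fragments and a fold of 6.48, and the one 6034 bp below the gene, chr2:44976974-44977478, had 22 fragments and a fold of 5.88, again without an RA peak. A RARα control peak with 12 fragments and a fold of 3.35, chr2:44977024-44977259, lay within the latter, the summits 113 bp apart. The fourth control peak, 56211 bp below Zeb2 and inside the neighbouring gene Gtdc1, had 32 fragments and a fold of 3.86. The authors' class for it was intergenic, but their detailed annotation called it a promoter. This control peak alone was overlapped with RA, by chr2:44927230-44927701 with 23 fragments and a fold of 2.69 (−log10 p 5.50), where the IgG level was 3.91 times background. This peak, 55811 bp from the gene, was the only one assigned to Zeb2 in the RA list.

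Id2, the E protein inhibitor, had BATF peaks at its promoter and at a distant site, and no RARα peak. The distant peak, chr12:25189171-25189729, was intergenic, 93079 bp from the gene, with 68 fragments and a fold of 11.3 (−log10 p 50.8). With RA it was chr12:25189000-25189679, with 46 fragments and a fold of 10.4 (−log10 p 35.3). In coverage these were 2.94 and 2.80. The 3 promoter-class control peaks lay on the 3′ end, on exon 1 and 2170 bp upstream, with 24, 40 and 43 fragments and folds of 4.94, 7.62 and 6.21. Only the one on exon 1 was overlapped with RA, by a peak of 18 fragments and a fold of 4.75. Its difference in coverage, −0.66 on the log2 scale, was the most negative of the 15 overlapping pairs at these genes, and 12.5% of all BATF pairs lay below it.

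Zbtb32 had the BATF peak of highest fold among the 8 genes. It was a wide promoter peak, chr7:30592907-30594460, with 61 fragments and a fold of 15.9 (−log10 p 57.1) over an IgG level at background, and it ranked 501 of 15812. In the RA list 2 peaks overlapped it: chr7:30593173-30593760 with 34 fragments and a fold of 11.6 (−log10 p 30.1), whose summit was 15 bp from that of the control, and chr7:30594028-30594788 with 36 fragments and a fold of 5.48. So the larger count of peaks with RA at Zbtb32 came from 1 control peak that was called as 2. A RARα control peak at chr7:30593560-30593824 lay within it, 67 bp from summit to summit, with 16 fragments and a fold of 4.38 (−log10 p 7.91), the highest RARα fold of the 8 genes.

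Bhlhe40 had a pair of BATF promoter peaks in both lists. The stronger, chr6:108660019-108660893, had 43 fragments and a fold of 7.24 (−log10 p 24.8), and with RA 24 fragments and a fold of 4.14, over IgG levels of 1.75 and 2.49 times background. The weaker, 1057 bp from the gene, had 26 fragments and a fold of 6.48, and with RA, at chr6:108659330-108659587, 17 fragments and a fold of 5.70 (−log10 p 10.7), the higher of its RA folds. Its RARα control peak, chr6:108668175-108668595, was 1250 bp beyond the other end, with 11 fragments and a fold of 2.41 (−log10 p 3.07), and 93.9% of the list had a higher fold. BATF had no control peak nearer to it than 7282 bp.

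Hic1 had 1 assigned peak in the 4 lists. It was a BATF control peak on the promoter, chr11:75170275-75170649, 20 bp from the gene, with 39 fragments and a fold of 4.97 (−log10 p 16.4), where the IgG level was 2.43 times background. No BATF RA peak overlapped it. A BATF RA peak 2275 bp away, with 31 fragments and a fold of 10.1, was assigned to the microRNA genes Mir212 and Mir132, where the control list also had a peak (45 fragments, fold 9.09).

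**Figure D3:**
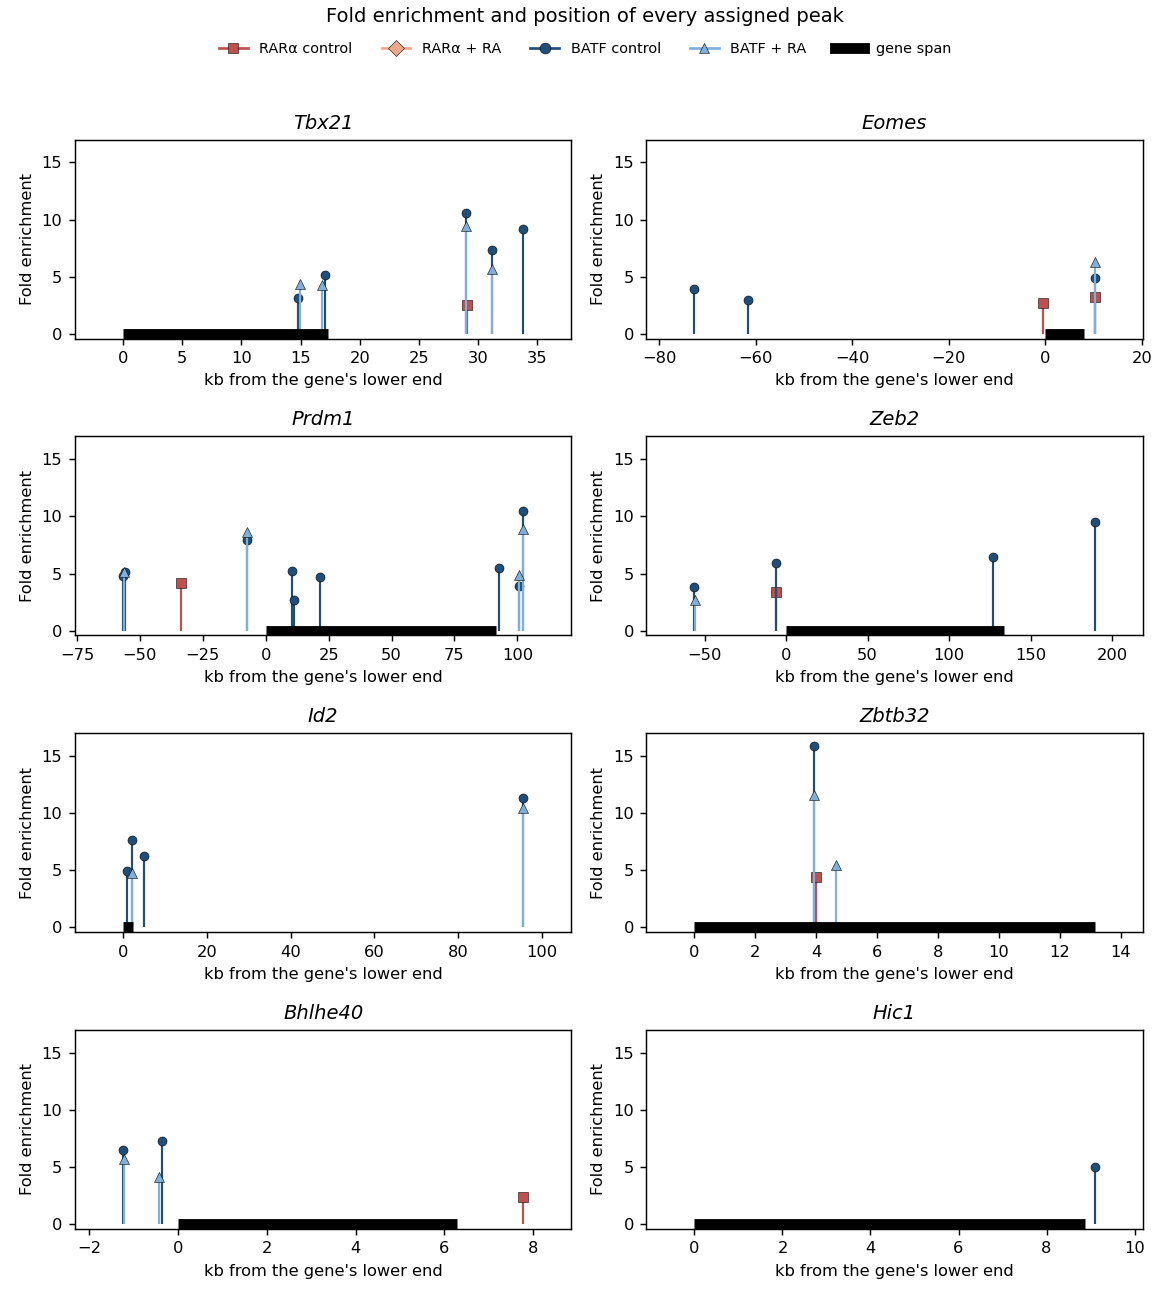
Position (kb from the end of the gene with the lower coordinate) and fold enrichment of each assigned peak. Red squares are RARα control, dark circles BATF control and light triangles BATF with RA, and the black bar is the span of the gene. The highest BATF peaks of Tbx21, Prdm1, Zeb2 and Id2 (10.6, 10.5, 9.47 and 11.3) lie outside the gene and those of Zbtb32, Bhlhe40 and Hic1 at promoters, while no RARα peak with RA is drawn because none was assigned.

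When overlapping peaks were merged, the 52 peaks formed 32 sites. BATF was called in both conditions at 15, in the control alone at 14 and with RA alone at 0, and 3 sites held RARα alone. Following the methods of the study, a control peak was first counted as kept when an RA peak lay within 5 kb. By this measure 20 of the 29 BATF peaks (69.0%, Wilson 95% interval 50.8 to 82.7) were kept, beside 69.9% of all BATF control peaks. For 5 of these 20 the RA peak was a neighbour that did not overlap. By overlap of at least 1 bp, 15 of 29 (51.7%, 34.4 to 68.6) were kept, beside 54.4% of the list. Both shares were close to those of the whole list, and the intervals cover counting error only. In the other direction, 16 of 16 BATF RA peaks overlapped a control peak, as 93.6% of that list did.

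Strength divided the 29 peaks only in part as it did the list, and promoter and intergenic peaks did not follow the list's order. The 15 overlapped peaks had a median fold of 7.24 and the 14 others 5.08, against 6.72 and 4.52 over all peaks. Of the 8 peaks above the upper quartile of the list's folds (7.39), 6 were overlapped with RA (75%), beside 91.1% over the list. The 2 that were not were the distant Zeb2 peak and the outermost Tbx21 peak. Between that quartile and the list's median, 3 of 7 were overlapped (42.9%, list 63.9%). From the median down to the lower quartile (4.28) it was 3 of 8 (37.5%, list 37.6%). Below the lower quartile it was 3 of 6 (50%, list 25.0%). Below the upper quartile the share at these genes thus did not fall steadily with fold as the list's did, on small counts. By class, 6 of 11 promoter peaks, 9 of 16 intergenic peaks and 0 of 2 intron peaks were overlapped, beside 61.2%, 47.9% and 41.3% over the list. These counts are too small to tell the order of the classes apart from that of the list. By gene, an RA peak overlapped 1 of 4 control peaks at Zeb2, 1 of 3 at Eomes, 4 of 9 at Prdm1, 2 of 4 at Id2, 4 of 5 at Tbx21, 2 of 2 at Bhlhe40, 1 of 1 at Zbtb32 and 0 of 1 at Hic1. Within 5 kb the counts were 5 of 9 at Prdm1, 4 of 4 at Id2, 5 of 5 at Tbx21 and 1 of 1 at Hic1, and the same as by overlap at the other 4 genes.

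At the 15 overlapping pairs, fold enrichment was lower in the RA list at 11 (73.3%), beside 75.5% of all 8605 such pairs. Coverage was lower at 10 (66.7%), beside 77.1%. The median difference in coverage was −0.12 on the log2 scale at these genes and −0.26 over all pairs. Median folds were 7.24 in the control and 5.67 with RA, against 6.72 and 5.40. In coverage, the most heavily covered distal sites differed by −0.10 at Tbx21 and −0.07 at Id2. The pairs at the promoters of Id2 and Tbx21 had the most negative values, −0.66 and −0.57. The Zbtb32 promoter and the stronger Bhlhe40 peak each had −0.35, the Tbx21 pair in the first intron −0.31 and the weaker Bhlhe40 peak −0.12. The summits of the Tbx21 promoter pair were 259 bp apart. In log2 fold enrichment that pair differed by −0.26, and the Tbx21 pair in the first intron by 0.46.

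Because the files give the local IgG level and the cutoff, a limit could be computed for a site that was not called: the largest number of fragments that would still miss the cutoff over the same IgG profile scaled to the other pool. At peaks whose summits lay within 50 bp in both BATF lists, the scaled and the recovered IgG levels had a median ratio of 1.00 (5th to 95th percentile 0.763 to 1.22). The limit leaves out the minimum length that a peak also needs. At the Zeb2 site 55327 bp above the gene it was 9 fragments with RA, or a coverage of 0.548 against 1.56 in the control, at most 35.2% of the control coverage. At the outermost Tbx21 site it was 10 fragments (39.1%), and at the Id2 peak upstream of the promoter 15 fragments against 43 (49.1%). At the other Zeb2 sites the limits were 54.1% and 57.6%, and at Hic1 57.7%. The limits at Zeb2, Tbx21 and Id2 were the lowest of the 14, and the pair of highest limits, 97.9% at the Eomes site 61523 bp away and 92.3% at the second intron 3 site of Prdm1, allow nearly the control coverage.

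With the coverage of the control and the RA pool's smaller depth, 13 of the 14 sites would have passed the cutoff, all but that Eomes site. Over the whole list this was so for 94.7% of the 7207 control peaks that no RA peak overlapped. This takes the expected count at sites chosen because they were called in the control, without sampling spread or the minimum peak length, and the part of depth in these calls was not tested. With 1 pool per condition, a difference between RA and control cells cannot be told apart from a difference between preparations.

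**Figure D4:**
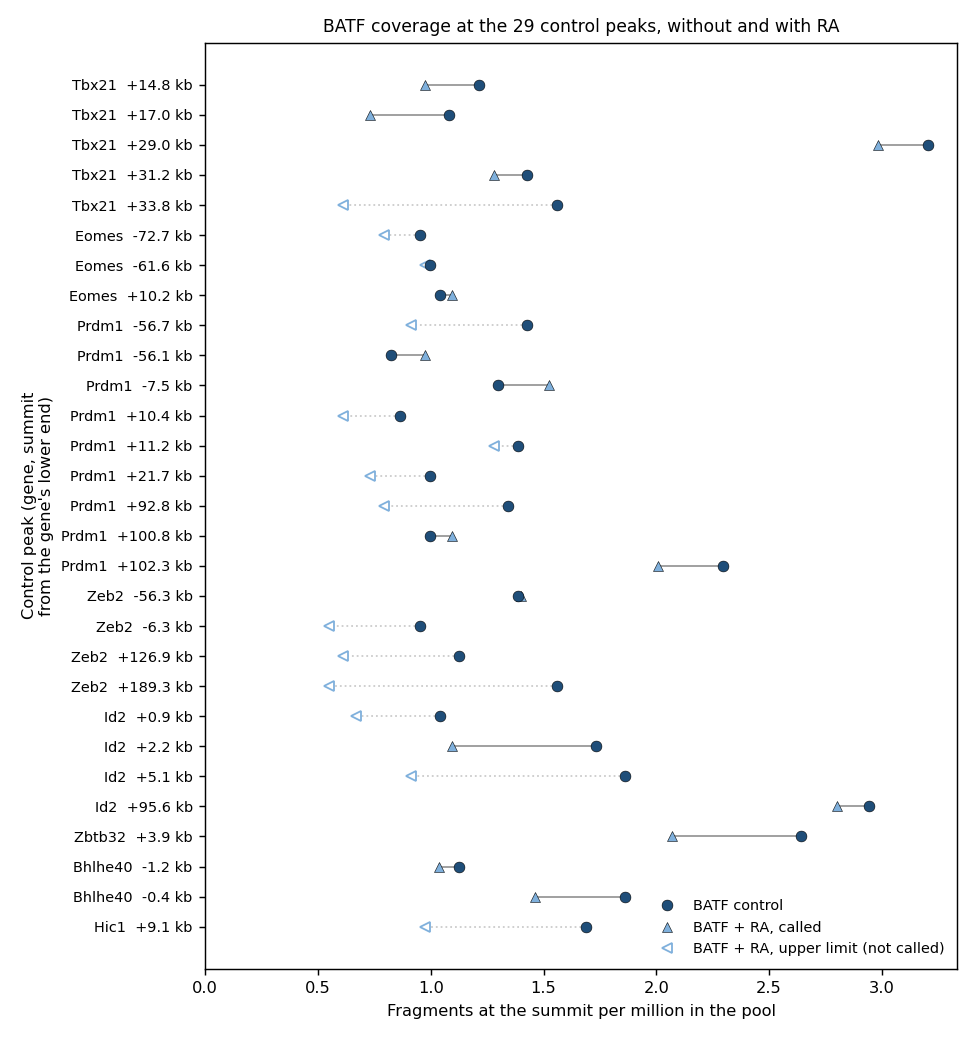
BATF coverage (fragments at the summit per 1000000 in the pool) for each of the 29 control peaks, named by gene and distance of the summit from the lower end of the gene. Dark circles are the control, light filled triangles the overlapping RA peak, and open triangles the upper limit with RA where no peak was called. The lowest limits relative to the control stand at Zeb2 (0.548 against 1.56) and at the outermost Tbx21 site (0.609 against 1.56), while 4 Prdm1 and Zeb2 sites and 1 Eomes site have the RA triangle to the right of the control.

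For RARα, 0 of the 7 control peaks had an RA peak within 5 kb (interval 0 to 35.4%), beside 10.2% of all RARα control peaks. The nearest RARα RA peak to any of them was 681350 bp away. That share lies within the interval. At equal coverage 6 of the 7 would have passed the cutoff with RA, all but the one at Bhlhe40, as 97.4% of the unmatched peaks of the list would have, with the same limits to that reckoning. The limit with RA was 12 fragments against 24 at Prdm1 and 8 against 16 at Zbtb32, at most 50.4% of the control coverage at each. At Zeb2 it was 8 against 12 (67.2%), at the Eomes sites 9 against 12 (75.6%) and 11 against 14 (79.2%), and at Tbx21 12 against 14 (86.4%). These are differences of a few fragments at all sites but Prdm1 and Zbtb32. Around Zbtb32 the RARα RA list skips peak numbers, so that a peak not analysed here could have stood there, whereas the numbers run on without a gap around the other 6 sites.

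**Figure D5:**
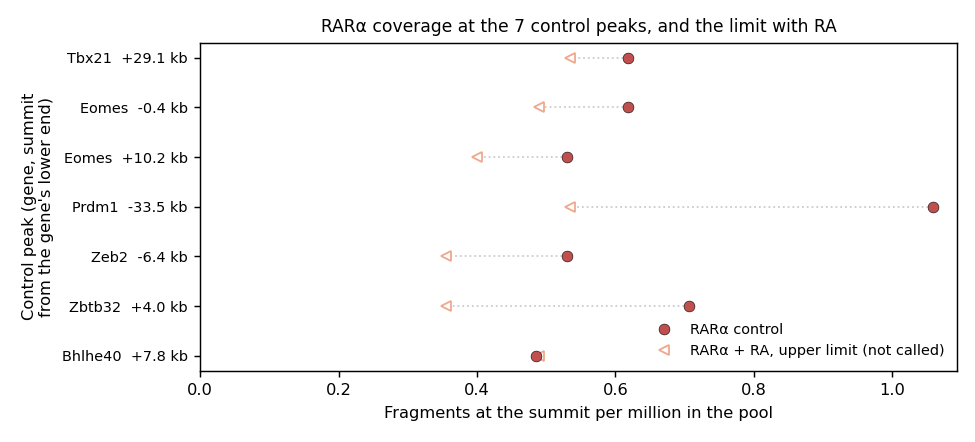
RARα coverage (fragments at the summit per 1000000 in the pool) at the 7 control peaks (circles), with the upper limit for RA-treated cells, where none was called (open triangles). Prdm1 has the highest control value (1.06, limit 0.534), and at Bhlhe40 the limit lies above the control value.

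RARα and BATF shared 4 of the 7 RARα control peaks, those at Tbx21, Zeb2 and Zbtb32 and the distal one at Eomes (57.1%, interval 25.0 to 84.2), beside 61.9% over the RARα control list, with BATF counted when within 5 kb. At these genes all 4 overlapped. Among these 4 RARα peaks only that at Zbtb32 had a −log10 q above 0.697. The summits were 12 to 113 bp apart, beside a median of 110 bp over the 626 overlapping RARα peaks of the list. RARα coverage was 19.3% of that of BATF at Tbx21, 26.8% at Zbtb32, 51.0% at Eomes and 55.6% at Zeb2 (list median 45.3%). Of the 4 shared sites, BATF was called again with RA at Tbx21, Eomes and Zbtb32 and not at Zeb2. The reverse count was 4 of 29 BATF control peaks overlapped by RARα (13.8%, 5.50 to 30.6), beside 3.92% of the list. That interval lies above the list's share, but the 29 peaks include several per gene and the genes were not drawn at random.

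The 25 BATF control peaks without RARα included the strong distal sites of Id2 (68 fragments) and Prdm1 (53 fragments). At the 25 sites the limit for RARα control was 8 to 22 fragments, or 18.0% to 71.0% of the BATF coverage. RARα at the level found at Tbx21 relative to BATF (19.3%) could thus be present without being called at all of them but the distal Id2 site, whose limit was the 18.0%. That level was the lowest of the 4 shared sites. At the list median of 45.3%, RARα would have exceeded the limit at some sites. Among these were the strong distal Prdm1 site (limit 21.2%) and the distant Zeb2 site (22.7%), while other limits lay above that median.

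Other factors of effector and memory fate, 23 genes listed with earlier results known, had BATF control peaks at 21 (130 assignments) and BATF RA peaks at 20 (78 assignments). Here too a peak that names several listed genes adds an assignment for each. RARα control peaks were assigned to 13 of the 23 genes (23 assignments), overlapping BATF at 12. Over all protein-coding genes the shares named were 48.6% for BATF control, 38.3% for BATF RA, 7.18% for RARα control and 3.19% for RARα RA. Counted by peak, 53.4% of the RARα control list overlapped a BATF control peak. Differences from these shares were not tested. Of the 23 genes, a RARα RA peak was assigned to 1, Lef1, which encodes a factor of naive and memory cells. The genes of this list with the most BATF control peaks were Tcf7 (15, then 5 with RA), Runx3 (13, then 6) and Lef1 (11, then 7). Tcf7 encodes TCF-1, a factor related to the product of Lef1, and Runx3 a factor of the CD8 lineage. Of 21 effector target and homing genes, 21 had BATF control peaks (106 assignments) and 19 BATF RA peaks (54 assignments). In the RARα lists, 11 had control peaks, and 2, Gzmb (granzyme B) and Il2rb (an IL-2 receptor chain), had an RA peak. Ifng, the T-bet target, had 6 BATF control peaks and 3 with RA, and 1 RARα control peak.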

How the data were processed

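ChIP-seq of RARα and BATF was analysed from the 4 peak lists that the authors deposited. According to the study's methods and the file headers, paired-end reads were aligned to mm10 with Bowtie2, peaks were called with MACS2 2.2.7.1 on 2 pooled alignment files per condition against 1 IgG file, and peaks were annotated. HOMER is named in the submitters' processing notes. Pileup was deposited as a signal that counts fragments covering the summit, although in the BATF control list each fragment adds 0.9875. Fold enrichment was deposited as a ratio of pileup to local IgG level, with 1 added to each. The deposited p-value and q-value columns are on the −log10 scale, and the latter was used only to describe RARα control peaks. From pileup and fold enrichment the IgG level was recovered, and recomputed −log10 p-values differed from the deposited ones by at most 0.00299 at values under 200.

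The lists hold no distance column, so distances were computed to gene spans from RefSeq on GRCm38.p6, which is mm10. Coverage is fragments at the summit per 1000000 in the pool. Peaks were shared if no more than 5 kb apart, or if they overlapped by at least 1 bp. Shares carry Wilson 95% intervals, which cover counting error only. All 8 genes and all their peaks are named, and the highest peak of each list in full. For the lists of other genes, the 3 with the most BATF control peaks, those with a RARα RA peak and Ifng are named. The 8 genes and the gene lists were chosen with earlier results of these data known. Peak numbers skipped in the lists (121, 130, 416 and 257 in the order RARα control, RARα RA, BATF control, BATF RA) were not analysed here. Alternatives were stricter p-values, lists of equal length, peaks within 10 kb, peaks naming 1 gene, other overlap distances and other measures of height. Overlap functions were tested on simulated data first. Tools were Python 3.11.15, scipy 1.17.1, pandas 2.3.3, numpy 2.4.6 and matplotlib 3.10.9. Sequences and motifs were not analysed here.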

Additional observations from a re-analysis of the deposited data

How the results depend on the processing

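Of 47 alternative values for 8 results, 34 stayed within 1.5 times the reported count or within the interval of the reported share, and 13 moved further. Reversal of direction was not examined. Part of the 34 could not have moved. A narrower selection cannot raise the 0 RARα RA peaks or the 0 of 7 RARα control peaks kept. Cutting the control list leaves the 16 BATF RA peaks unchanged. The 7 RARα control peaks became 2 at a p-value of at most 1e-05, 3 when the control list was cut to the length of the RA list by smallest p, and 2 when only peaks naming a single gene counted. The 29 BATF control peaks became 18 with lists of equal length, 18 within 10 kb of the gene, 13 when naming a single gene, and 53 when every peak within 100 kb counted by position. The 16 BATF RA peaks became 9 at a p-value of at most 1e-10, 10 within 10 kb, 7 when naming a single gene and 33 by position, and the 0 RARα RA peaks became 2 by position. The share of BATF control peaks kept with RA was 47.8% at the stricter p-value and 77.8% with lists of equal length. Counting by position and a limit of 2 times background on the local IgG level were chosen after seeing the data, and the latter moved none of the 6 results it was run for, the peak counts of the 4 lists and the shares of BATF and RARα control peaks kept with RA. No paired analysis was possible because each condition is 1 pooled list. Replicates could not be left out for the same reason. No RARα RA peak was assigned to these genes, so its overlap with BATF gave no value, and sequence motifs were not run. The RARα calls rest on 11 to 24 fragments each.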

Other observations

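Peaks within 100 kb of Hic1 by position, chosen for description after their values were seen, included a site of both factors that the annotation gives to Smg6, inside an intron of that gene and 6724 bp from Hic1. Smg6 encodes a factor of nonsense-mediated RNA decay. The RARα control peak there, chr11:75154090-75154653, had 23 fragments and a fold of 6.18 (−log10 p 14.0). The RARα RA peak, chr11:75154008-75154518, had 38 fragments and a fold of 9.86 (−log10 p 29.2), and only 0.335% of the RARα RA list had a higher fold. BATF had 26 fragments and a fold of 6.91 there in the control, and 41 fragments and a fold of 13.9 with RA. Coverage by RARα was 1.02 without and 1.69 with RA, and by BATF 1.13 and 2.50, in fragments per 1000000 of the pool. Both factors thus had higher values in the RA lists at this site, whereas the promoter peak of Hic1 itself was called for BATF in the control alone. A second RARα RA peak in an intron of Smg6, 24041 bp from Hic1, had 12 fragments and a fold of 2.77. Which gene the site acts on was not tested.

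Near Tbx21, a RARα control peak with 19 fragments and a fold of 4.22 lay in an intron of Tbkbp1, 28150 bp from Tbx21 and outside the peaks assigned to it, and overlapped a BATF control peak with 18 fragments and a fold of 3.70. Tbkbp1 encodes a binding protein of the kinase TBK1. In both cases the count by assigned gene left out a RARα peak nearer to the effector factor gene than the one counted for Prdm1 was to Prdm1 (33343 bp).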
